A study of Mus musculus with 4 samples.

Results

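The genes described here are the neighbours of Npas3 on mouse chromosome 12, measured in cultured cortical astrocytes labelled wild type or Npas3-/-. They are Scfd1, Strn3, Heatr5a and Akap6 before Npas3 in chromosome coordinates, and Sptssa, Snx6, Baz1a, Srp54a and Srp54c after it. These 9 genes, out of 53379 in the count table, were chosen by name among the genes around the targeted gene. The rule cites no measured value, but it was written with earlier results of these data known, and 18 other tested genes of the same stretch are not among the 9. In the mm10 build, which is GRCm38, their outermost ends are at chr12:51377510-55263836, and Npas3 lies at chr12:53248677-54072175. The comparison was between 2 wild-type and 2 Npas3-/- samples, both on the C57BL/6 background. All 4 were primary astrocytes prepared from the cortex at postnatal day 0, grown with fetal bovine serum, shaken to remove neurons and harvested at day 14 in vitro. The sources used here do not give how the Npas3-/- allele was made or which part of the gene it removes. Nor do the labels tell whether the samples within a genotype are different animals or cultures, and the p-values below therefore reflect the variation among 4 libraries, part or all of which may be technical.

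The product of Npas3 is a bHLH-PAS transcription factor, active in the developing brain. Such factors bind DNA as dimers with a partner such as ARNT, and short E-box-like sequences with the core ACGTG are typical of their binding sites. The neighbours do unrelated jobs: Strn3 and Akap6 are scaffolds for a phosphatase and for protein kinase A, Scfd1, Heatr5a and Snx6 act in membrane traffic, Sptssa in sphingolipid synthesis, Baz1a in chromatin remodelling, and Srp54a and Srp54c in targeting new proteins to the endoplasmic reticulum.

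The libraries held between 82965565 and 86932708 counts. Npas3 itself was read at 57.8 and 93.4 CPM, which are counts scaled to TMM-adjusted library size, in the wild-type libraries and at 24.8 and 18.0 CPM in the Npas3-/- libraries. Its whole-gene log2 fold change was -1.82 (SE 0.33, adjusted p = 0.0181 in the quasi-likelihood test of edgeR, after Benjamini-Hochberg adjustment), so both Npas3-/- libraries lay below both wild-type libraries without being at 0. Summed CPM of 12 astrocyte markers were 3679 and 4815 in wild type and 5956 and 5687 in Npas3-/-, with Gfap, the astrocyte filament protein, the most abundant. Of the lists for other cell types, the summed CPM in wild type against Npas3-/- were 170 to 312 against 201 to 202 for neurons, 10.2 to 10.6 against 11.2 to 12.3 for microglia, and 1502 to 1645 against 1804 to 2198 for the oligodendrocyte lineage. They were 362 to 426 against 322 to 386 for fibroblasts, 288 to 1256 against 1345 to 1366 for endothelial and mural cells, and 269 to 370 against 513 to 644 for ependymal cells. The neuronal genes Rbfox3 and Snap25, the endothelial genes Cdh5 and Tek and the astrocyte gene Gjb6 were at 0 in both Npas3-/- libraries, Ptprc and Cldn5 were at 0 in both wild-type libraries, and Mog and Tmem212 were at 0 in all 4. A sum follows its most abundant genes, and not all markers moved with it. At an edgeR adjusted p below 0.05, 3 of 11 tested astrocyte genes were lower and 2 higher. Lower were 3 of 8 neuronal, 2 of 7 fibroblast, 2 of 5 endothelial and mural and 1 of 5 ependymal genes, with 0 higher. Of 8 oligodendrocyte-lineage genes 1 was lower and 1 higher, and of 9 microglial genes 0 were called. Over all genes tested 21.5% were lower and 11.6% higher. In bulk samples, fewer cells of a type and less RNA per cell cannot be told apart, and the part of these markers in the results on the neighbours was not tested.

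All 9 neighbours were lower in the Npas3-/- astrocytes. Their levels there were between 6.99% (Akap6) and 33.1% (Heatr5a) of the wild-type mean, and the median log2 fold change was -2.60, with a range of -3.84 to -1.59. In every one of the 9 genes both Npas3-/- libraries lay below both wild-type libraries, which was also the case for 40.1% of all genes tested. The lower wild-type library was above the higher Npas3-/- library by 2.23 to 6.83 times. A gap of at least 2 times in this direction was found in 3774 of all 18838 genes tested. Among the 7866 tested genes with a transcript GC content within the range of the 9, 3106 had such a gap. In 5429 of those 7866 both Npas3-/- libraries lay below both wild-type libraries. In edgeR's quasi-likelihood test 9 of 9 passed as lower at an adjusted p below 0.05, and over all 18838 genes tested 21.5% were called lower and 11.6% higher, and the median log2 fold change was -0.07. The calls were more sensitive to leaving out an Npas3-/- library than a wild-type library. Without wild-type replicate 1 the 9 log2 fold changes lay between -4.21 and -1.49, and without wild-type replicate 2 between -3.37 and -1.44. Without Npas3-/- replicate 1 edgeR called 7 of them, against 9.38% of all genes, and lost Sptssa (adjusted p = 0.0527) and Srp54a (adjusted p = 0.0679). Without Npas3-/- replicate 2 it called 0 of them and 0% of all genes as lower, with the members' adjusted p between 0.0798 and 0.105 and an unadjusted p below 0.05 for 9 of 9. On those same 3 libraries DESeq2 called 9 of 9, against 17.2% of all genes, and limma-voom called 0.

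**Figure D1:**
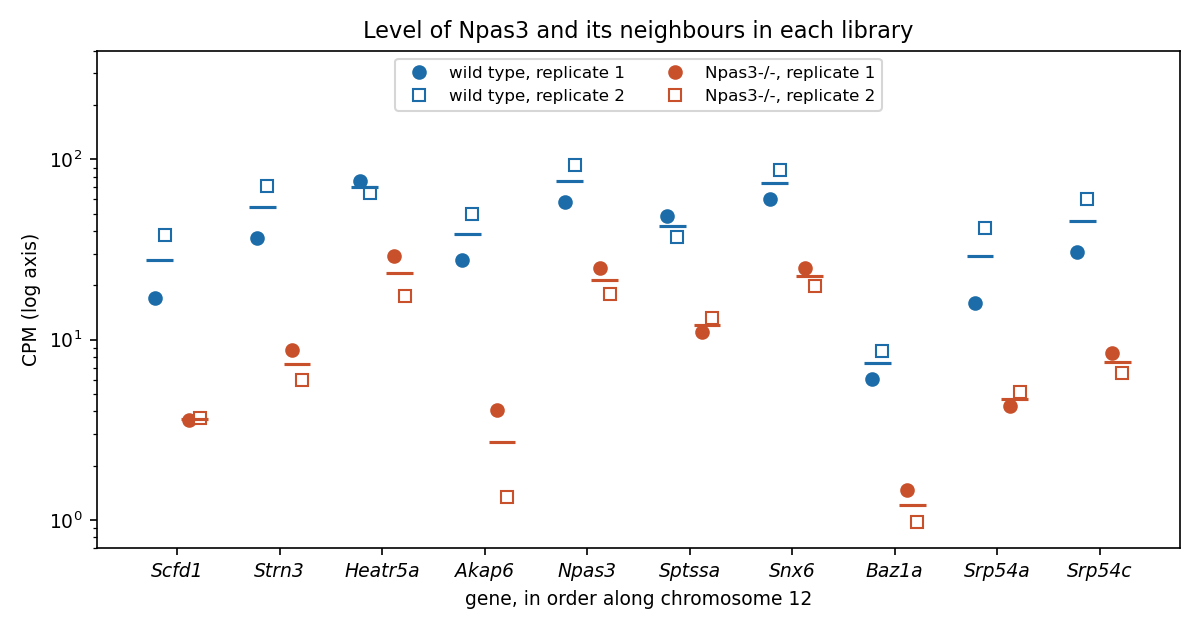
CPM (log axis) of Npas3 and its 9 neighbours, in chromosome order, in each library, with filled circles for replicate 1, open squares for replicate 2 and bars for the means. In all 10 genes both Npas3-/- symbols lie below both wild-type symbols, and the wild-type replicates are farthest apart in Srp54a, at 16.0 and 41.8 CPM.

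Strn3 and Akap6 are the scaffold proteins among the neighbours, and they are shown first because they alone kept their call after the correction described further on. Strn3 (ENSMUSG00000020954.16, minus strand, chr12:51609632-51691897) encodes a striatin-family protein, the regulatory subunit that joins protein phosphatase 2A to the STRIPAK complex. It was read at 36.8 and 71.4 CPM in wild-type replicates 1 and 2 and at 8.70 and 6.00 CPM in Npas3-/- replicates 1 and 2. The wild-type libraries differed from each other, and both stood well above the Npas3-/- libraries. The mean fell from 54.1 ± 24.4 to 7.35 ± 1.91 CPM (SD, n = 2 each), with a log2 fold change of -2.88 (SE 0.42, edgeR adjusted p = 0.0137). Akap6 (ENSMUSG00000061603.8, plus strand, chr12:52699383-53155599), is the nearest neighbour, with its end at -93.1 kb from Npas3. It encodes an anchoring protein that holds protein kinase A at the nuclear envelope of muscle and nerve cells. Its levels were 27.8 and 49.6 CPM in wild type and 4.07 and 1.34 CPM in Npas3-/-. This was the steepest fall of the 9, from 38.7 ± 15.4 to 2.70 ± 1.93 CPM, and the Npas3-/- libraries, with 337 and 103 counts, also differed from each other more than in the other neighbours. Its log2 fold change was -3.84 (SE 0.64, edgeR adjusted p = 0.0165).

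The 250 bases before the RefSeq start sites of these genes (build GRCm38.p6, written 5′ to 3′ along the gene's strand) are printed because they differ sharply in composition while both genes fell. The capitals would mark ACGTG on either strand, and neither window holds it.
Strn3, chr12:51691915-51692164, minus strand: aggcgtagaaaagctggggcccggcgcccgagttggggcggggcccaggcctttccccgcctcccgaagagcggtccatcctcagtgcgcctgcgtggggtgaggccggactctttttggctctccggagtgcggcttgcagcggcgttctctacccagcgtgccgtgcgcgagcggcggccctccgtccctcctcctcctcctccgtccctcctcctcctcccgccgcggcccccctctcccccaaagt
Akap6, chr12:52699133-52699382, plus strand: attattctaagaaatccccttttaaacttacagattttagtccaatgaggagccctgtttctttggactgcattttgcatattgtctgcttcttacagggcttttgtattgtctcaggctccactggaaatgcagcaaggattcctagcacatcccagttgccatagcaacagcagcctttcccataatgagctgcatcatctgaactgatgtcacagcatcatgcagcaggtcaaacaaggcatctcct
The Strn3 window has a GC content of 72.0% and an observed over expected CpG ratio of 0.822, and the Akap6 window has 43.6% and no CpG at all. RefSeq start sites were matched for 8 of the 9 neighbours. The 8 windows had a median GC content of 61.2% and a median CpG ratio of 0.807, against 52.4% and 0.374 over the 32851 promoters of the table. ACGTG, read on both strands, occurred in 2 of the 8, Srp54a and Srp54c, and in 16.6% of all promoters. These 2 windows, chr12:55080246-55080495 and chr12:55230127-55230376, lie mostly inside the genes as annotated in GENCODE, which start at 55080262 and 55230168. Both matches lie inside the genes so annotated. The windows of these 2 copies are 77.6% identical and share the stretch around the match, so the 2 matches are not independent. The E-box CACGTG, which contains ACGTG, occurred in 0 of the 8 and in 6.02% of all promoters. A match describes letters in a window and is not evidence of binding.

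Among 18 tested genes of the STRIPAK complex, taken as the partners of Strn3, 6 were lower (33.3%, against 21.5% of all genes) and 1 was higher, and the median log2 fold change was -0.74. After the correction for GC content and length given further on, 2 were lower (11.1%, against 3.07% of all genes) and 3 higher (16.7%, against 5.71%), with a median of 0.02. The scaffold Strn went from 27.2 ± 8.08 to 4.73 ± 1.85 CPM (log2 fold change -2.52, edgeR adjusted p = 0.0161). Pdcd10, an adaptor of the complex's kinases that is also known from cerebral cavernous malformations, went from 31.8 ± 13.4 to 2.14 ± 0.181 CPM (log2 fold change -3.89, edgeR adjusted p = 0.0130). Cttnbp2, a cortactin-binding partner, went from 18.0 ± 5.46 to 5.02 ± 0.100 CPM (log2 fold change -1.84, edgeR adjusted p = 0.0189). Of 21 genes for A-kinase anchoring proteins and protein kinase A, the relatives and partners of Akap6, 12 were lower and 2 higher, with a median of -1.17. These shares were 57.1% and 9.52%, against 21.5% and 11.6% of all genes. After correction 1 was lower and 1 higher (4.76% each, against 3.07% and 5.71%), with a median of -0.18. Prkar2a, a regulatory subunit of protein kinase A, fell from 65.5 ± 5.52 to 24.5 ± 1.65 CPM (log2 fold change -1.42, edgeR adjusted p = 0.0140). The anchoring genes Akap2 and Akap7 were at 144 ± 10.2 and 10.6 ± 2.64 CPM in wild type and fell to 63.8 ± 0.639 and 2.16 ± 0.507 CPM in Npas3-/- (edgeR adjusted p = 0.0154 and 0.0167).

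The membrane traffic genes Scfd1, Heatr5a and Snx6 lie on both sides of Npas3. Scfd1 (ENSMUSG00000020952.10, plus strand, chr12:51377510-51450101) encodes the Sec1/Munc18 protein that helps SNAREs fuse vesicles between the endoplasmic reticulum and the Golgi apparatus. It was read at 16.9 and 38.1 CPM in wild type and at 3.60 and 3.66 CPM in Npas3-/-. The Npas3-/- libraries were nearly equal, whereas the wild-type libraries were spread as far as 27.5 ± 14.9 CPM around their mean. The log2 fold change was -2.92 (SE 0.46, edgeR adjusted p = 0.0152). Heatr5a (ENSMUSG00000035181.6, minus strand, chr12:51875871-51971321), a HEAT-repeat protein whose paralogue Heatr5b works with the clathrin adaptor AP-1, was at 75.9 and 64.7 CPM in wild type and at 29.0 and 17.5 CPM in Npas3-/-. It had close wild-type libraries, at 70.3 ± 7.93 CPM, and the smallest fall of the 9, with a log2 fold change of -1.59 (SE 0.31, edgeR adjusted p = 0.0206). Snx6 (ENSMUSG00000005656.9, minus strand, chr12:54746349-54795703), a sorting nexin that works with retromer to carry cargo from endosomes to the Golgi, was at 60.1 and 87.5 CPM in wild type and at 24.9 and 19.9 CPM in Npas3-/-. It fell from 73.8 ± 19.4 to 22.4 ± 3.57 CPM (log2 fold change -1.72, SE 0.28, edgeR adjusted p = 0.0158).

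The partners of these traffic genes did not all move one way. Of 22 SNAREs and Sec1/Munc18 proteins around Scfd1, 5 were lower and 6 higher, and the median log2 fold change was 0.08. These shares were 22.7% and 27.3%, against 21.5% and 11.6% of all genes. After correction 1 was lower (4.55%, against 3.07%) and 4 higher (18.2%, against 5.71%), with a median of 0.33. The vesicle tether Uso1 fell from 73.2 ± 13.8 to 15.4 ± 4.86 CPM (log2 fold change -2.24, edgeR adjusted p = 0.0134) and the Munc18 relative Stxbp3 from 22.5 ± 6.88 to 2.26 ± 0.250 CPM (log2 fold change -3.31, edgeR adjusted p = 0.0130). The SNARE Use1 rose from 28.3 ± 0.724 to 86.4 ± 23.3 CPM (log2 fold change 1.61, edgeR adjusted p = 0.0156). Of 12 genes of the Heatr5 and aftiphilin clathrin group, 5 were lower and 5 higher (41.7% each, against 21.5% and 11.6% of all genes). After correction 0 were lower and 1 was higher (8.33%, against 5.71%). Heatr5b, the paralogue of Heatr5a, fell from 57.6 ± 1.43 to 25.4 ± 7.44 CPM, and the AP-1 genes Synrg and Ap1g1 fell from 38.6 ± 2.63 to 11.5 ± 5.36 and from 100 ± 29.0 to 25.5 ± 9.24 CPM (edgeR adjusted p = 0.0297, 0.0261 and 0.0184). Of 19 retromer and SNX-BAR genes beside Snx6, 7 were lower (36.8%, against 21.5% of all genes) and 2 higher (10.5%, against 11.6%). After correction 4 were lower (21.1%, against 3.07%) and 2 higher (10.5%, against 5.71%). The lower genes include Vps35, the core of retromer, at 116 ± 57.1 against 10.6 ± 0.663 CPM, and the Snx6 relatives Snx5, at 122 ± 31.9 against 21.5 ± 2.81 CPM, and Snx2, at 42.2 ± 14.1 against 6.26 ± 0.819 CPM, each with an edgeR adjusted p of 0.0130.

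Sptssa (ENSMUSG00000044408.7, minus strand, chr12:54645392-54656573) encodes a small activating subunit of serine palmitoyltransferase, the enzyme that starts sphingolipid synthesis. Its levels were 48.2 and 36.9 CPM in wild type and 11.0 and 13.2 CPM in Npas3-/-. The spread within each genotype was small beside the gap between them, and the mean fell from 42.6 ± 8.03 to 12.1 ± 1.56 CPM (log2 fold change -1.82, SE 0.27, edgeR adjusted p = 0.0137). Of 15 tested genes of serine palmitoyltransferase and sphingolipid synthesis, 5 were lower and 2 higher (median log2 fold change 0.12). These shares were 33.3% and 13.3%, against 21.5% and 11.6% of all genes. After correction 1 was lower (6.67%, against 3.07%) and 7 were higher (46.7%, against 5.71%), with a median of 0.23. Ormdl1, a brake on serine palmitoyltransferase, fell from 14.2 ± 1.37 to 1.17 ± 0.116 CPM (log2 fold change -3.60, edgeR adjusted p = 0.0130), and the ceramide synthase Cers6 and the sphingomyelin synthase Sgms1 fell from 51.3 ± 14.4 to 8.92 ± 1.79 and from 20.9 ± 2.19 to 5.23 ± 0.262 CPM. Sptssb and Sptlc3, other subunits of the enzyme, did not reach the count minimum and were not tested.

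Baz1a (ENSMUSG00000035021.13, minus strand, chr12:54892989-55014348) encodes the ACF1 subunit that pairs with the ISWI ATPase to space nucleosomes. It had the fewest counts of the 9, at 538 and 813 in wild type and 121 and 75 in Npas3-/-, which are 6.06 and 8.69 CPM against 1.46 and 0.974 CPM. The genotypes were well apart at this low level, with a log2 fold change of -2.60 (SE 0.43, edgeR adjusted p = 0.0161). Of 13 ISWI remodelling genes, 7 were lower and 1 higher, and the median log2 fold change was -1.61. These shares were 53.8% and 7.69%, against 21.5% and 11.6% of all genes. After correction 0 were lower (against 3.07% of all genes) and 2 higher (15.4%, against 5.71%), with a median of -0.32. The NURF subunit Bptf fell from 96.2 ± 17.4 to 26.5 ± 14.9 CPM, the Baz1a relative Baz1b from 172 ± 4.62 to 85.3 ± 15.6 CPM and the HMG-box gene Hmgxb4 from 22.6 ± 0.367 to 7.37 ± 0.903 CPM (edgeR adjusted p = 0.0300, 0.0247 and 0.0161).

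Srp54a and Srp54c encode the GTPase of the signal recognition particle, which grips the signal sequence of a protein as it leaves the ribosome. They stand on either side of a further copy, Srp54b, which lies between them. The coding sequences of the 3 copies, in the GENCODE release 21 transcripts of GRCm38, are 1512 bases long. Srp54a and Srp54b differ at 0 of these bases and Srp54a and Srp54c at 6 (99.6% identity): T501C, T945C, G946A, T965G, A1197T and G1249A, counted from 1 at the first base of the start codon with the Srp54a base first. The stretches that hold 5 of the 6 differences are printed to show how little sequence can tell a read of Srp54c from one of its copies, and capitals mark the differing bases. The first pair joins neighbouring exons (coding bases 925 to 985), and the others each lie within 1 exon on the plus strand of GRCm38.
Srp54a, coding bases 925 to 985: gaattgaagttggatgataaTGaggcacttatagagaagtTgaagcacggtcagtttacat
Srp54c, coding bases 925 to 985: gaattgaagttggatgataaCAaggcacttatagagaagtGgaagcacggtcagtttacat
Srp54a, chr12:55108522-55108562: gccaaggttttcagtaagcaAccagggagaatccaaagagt
Srp54c, chr12:55257445-55257485: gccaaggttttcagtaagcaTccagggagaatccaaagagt
Srp54a, chr12:55108574-55108614: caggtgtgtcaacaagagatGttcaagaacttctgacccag
Srp54c, chr12:55257497-55257537: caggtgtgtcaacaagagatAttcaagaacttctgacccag
Over whole transcripts, 72.1% of the 100-base windows of Srp54a, 89.5% of those of Srp54c and 98.4% of those of Srp54b also occur in a transcript of another gene. The sources used here do not give how the authors' counting assigned shared reads, so the level of each copy is uncertain.

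Srp54a (ENSMUSG00000073079.6, plus strand, chr12:55080262-55115367) was at 16.0 and 41.8 CPM in wild type and at 4.30 and 5.12 CPM in Npas3-/- (log2 fold change -2.62, SE 0.51, edgeR adjusted p = 0.0214). Srp54c (ENSMUSG00000079108.6, plus strand, chr12:55230168-55263836) was at 30.7 and 60.2 CPM in wild type and at 8.44 and 6.51 CPM in Npas3-/- (log2 fold change -2.60, SE 0.40, edgeR adjusted p = 0.0149). For both, wild-type replicate 2 stood well above replicate 1, and both Npas3-/- libraries were lower than either. Srp54b moved alike, from 50.6 ± 27.2 to 10.3 ± 1.96 CPM (log2 fold change -2.30, edgeR adjusted p = 0.0206). The sum of the 3 copies removes the effect of splitting reads among them, but not that of shared reads being dropped or counted more than once. It was 78.1 and 172 CPM in wild type against 24.4 and 20.5 CPM in Npas3-/-, and its log2 fold change was -2.48 (SE 0.41, edgeR adjusted p = 0.0165). Srp54c held 39.4% and 35.0% of that sum in wild-type libraries, against 34.6% and 31.7% in Npas3-/-, and Srp54a held 20.5% and 24.3% against 17.6% and 25.0%, so the shares of Srp54a overlapped between genotypes and those of Srp54c were slightly lower in both Npas3-/- libraries. Of 18 tested genes of the signal recognition particle and translocon, a list that includes Srp54b, 6 were lower and 5 higher, with a median of 0.30. These shares were 33.3% and 27.8%, against 21.5% and 11.6% of all genes. After correction 1 was lower (5.56%, against 3.07%) and 4 higher (22.2%, against 5.71%), with a median of 0.31. Srp19, another protein of the particle, fell from 30.8 ± 4.28 to 6.58 ± 1.10 CPM, and the translocon genes Sec63 and Ssr3 fell from 134 ± 42.6 to 33.7 ± 7.24 and from 361 ± 92.5 to 65.9 ± 3.40 CPM (edgeR adjusted p = 0.0130, 0.0150 and 0.0130).

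Over the 8 lists together, 138 genes were tested, of which 53 were lower (38.4%) and 24 higher (17.4%), and the median log2 fold change was -0.36. Over all genes 21.5% were lower and 11.6% higher, so both shares were above those of all genes. The partner genes were also more abundant, with a median wild-type level of 53.0 CPM against 13.4 CPM over all genes tested. With a filter of 5 CPM, 83 of 132 partner genes were called in either direction, against 5979 of all 11652 genes. The part of abundance in these shares was not tested.

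The neighbours differed in abundance once length was taken into account. Per kilobase of all annotated exons, mean wild-type levels ran from Sptssa (28.0 CPM per kb) and Snx6 (24.6) through Srp54c (12.5), Strn3 (8.14), Srp54a (5.43), Heatr5a (3.40), Akap6 (2.61) and Scfd1 (2.09) to Baz1a (1.03). Neighbours in this order overlapped between the wild-type libraries except for Snx6 above Srp54c and Scfd1 above Baz1a. The order depends on the length used: per kilobase of the longest coding transcript Snx6 led with 38.3 CPM per kb, Sptssa followed with 31.6, and Scfd1, whose annotated exons add up to 13162 bases against 2749 in that transcript, was at 10.0. Wild-type replicate 2 was above replicate 1 in 7 of the 9 genes, all except Heatr5a and Sptssa. Npas3-/- replicate 1 was above replicate 2 in 6 of 9, all except Scfd1, Sptssa and Srp54a.

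The stretch of chromosome 12 between the outermost neighbours was not lower throughout. Besides Npas3 and the 9 genes it holds 66 annotated genes, of which 31 had a count and 18 were tested. Of these 18, 4 were lower (22.2%, against 21.5% of all genes), 1 was higher and 13 were not called, with a median log2 fold change of -0.84. Among the lower ones were Srp54b, Eapp, an E2F-associated phosphoprotein (23.5 ± 2.83 to 12.3 ± 1.43 CPM, log2 fold change -0.93, edgeR adjusted p = 0.0455), and the clone-named 2700097O09Rik (log2 fold change -2.03, edgeR adjusted p = 0.0233), which is named because it was called. Egln3, a prolyl hydroxylase that marks hypoxia-inducible factors for degradation, lies 106.8 kb after Npas3, closer than any neighbour on that side. It was the higher one, at 41.6 and 28.6 CPM in wild type and 126 and 122 CPM in Npas3-/- (log2 fold change 1.82, SE 0.25, edgeR adjusted p = 0.0133). Of the 18, 13 are protein-coding, of which 4 were lower (30.8%, against 24.3% of all protein-coding genes tested) and 1 higher. These shares leave out the 9 neighbours, which were chosen with earlier results known. With the 9 included, 13 of 27 tested genes of the stretch were lower (48.1%) and 1 higher, with a median log2 fold change of -1.59.

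Several genes that stand among the 9 did not pass the test. Dtd2, a D-aminoacyl-tRNA deacylase gene just after Heatr5a, was at 17.8 and 17.7 CPM in wild type and 18.1 and 20.6 CPM in Npas3-/- (log2 fold change 0.13, edgeR adjusted p = 0.710). Nubpl, an assembly factor of respiratory complex I, was at 11.6 and 10.5 against 10.8 and 15.9 CPM, and Fam177a, between Srp54a and Srp54b, at 21.3 ± 0.639 against 17.4 ± 0.552 CPM (edgeR adjusted p = 0.533 and 0.366). The actin-severing gene Cfl2, between Snx6 and Baz1a, was at 62.3 and 63.1 against 42.1 and 37.1 CPM (log2 fold change -0.66, edgeR adjusted p = 0.0521). Ap4s1, a subunit of the adaptor AP-4, and the extracellular matrix gene Coch had log2 fold changes of -0.75 and -1.29 (edgeR adjusted p = 0.110 and 0.175). Arhgap5, a GTPase-activating protein, was at 4.85 and 41.7 CPM in wild type and 4.86 and 2.87 CPM in Npas3-/-, so its value rests on wild-type replicate 2. Wider sets, again without Npas3 and the 9, take in the other genes of the stretch as well. Of 50 tested genes that start within 5 Mb of Npas3, 14 were lower (28.0%) and 2 higher, with a median of -0.86. Of 681 tested genes of the whole chromosome 163 were lower (23.9%) and 51 higher, with a median of -0.37. Over all genes the share called lower was 21.5%.

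**Figure D2:**
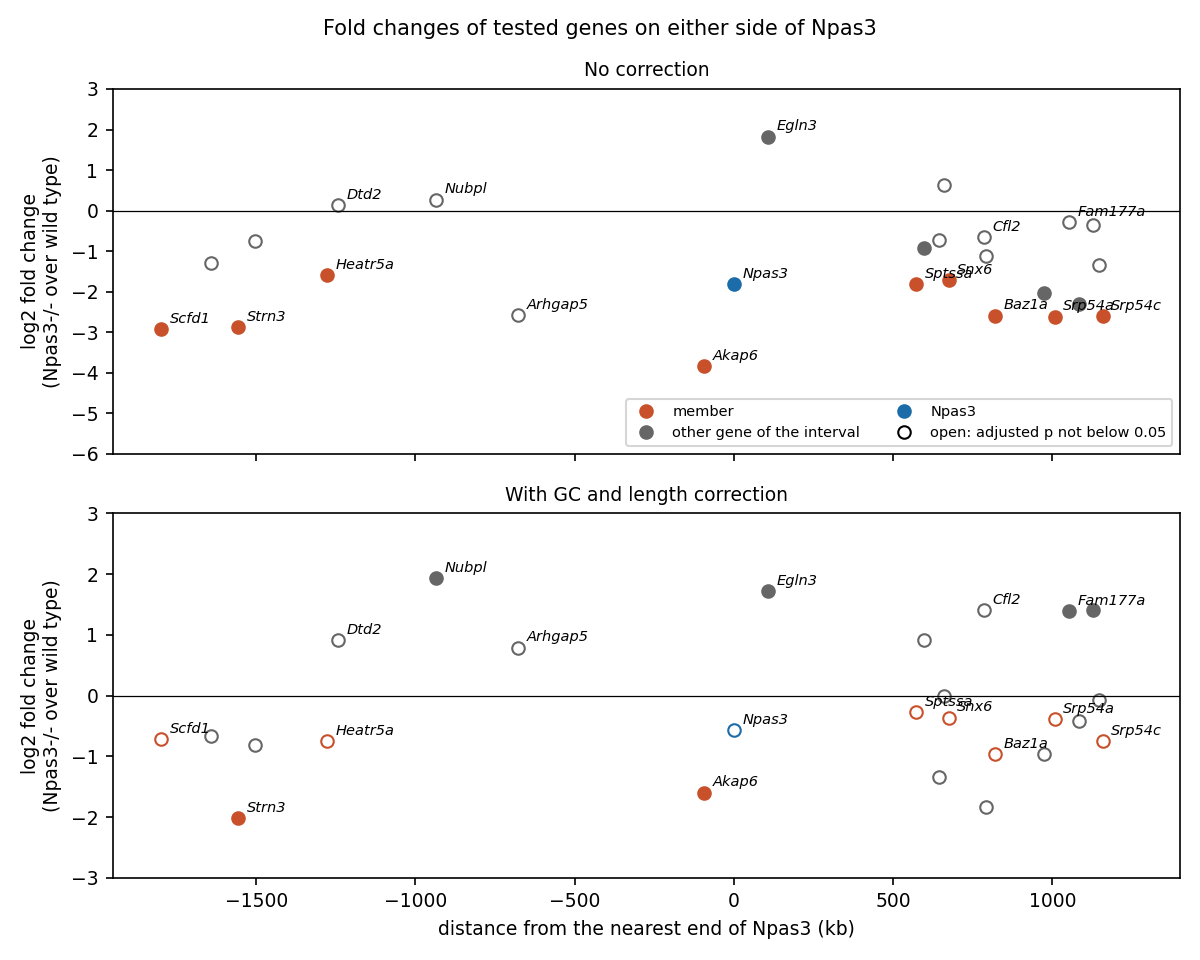
Log2 fold change (Npas3-/- over wild type) of the tested genes between the outermost neighbours against distance from the nearest end of Npas3 in kb, without correction (upper panel) and with the correction for GC content and length (lower panel); orange marks the 9 neighbours, blue Npas3 and grey the other genes, and filled symbols have an edgeR adjusted p below 0.05. The neighbours are all filled and below 0 in the upper panel, and Strn3 and Akap6 are the 2 still filled in the lower, where Egln3 stays at 1.72. Gm47399, with no count in Npas3-/-, and a gene not reported here are not drawn.

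Distance along the chromosome gave no simple order among the 9. The 4 before Npas3 had a median log2 fold change of -2.90 and the 5 after it -2.60. Akap6, the nearest at -93.1 kb, fell the most. Scfd1, the farthest at -1799 kb, and Strn3, at -1557 kb, were next, at -2.92 and -2.88, and Heatr5a, at -1277 kb, fell the least. On the other side Sptssa (573 kb) and Snx6 (674 kb) were at -1.82 and -1.72, and Baz1a (821 kb), Srp54a (1008 kb) and Srp54c (1158 kb) at -2.60, -2.62 and -2.60.

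The counts were spread over genes of different GC content in the genotypes, and the neighbours are AT-rich. The GC content of the genes' annotated transcripts, averaged over counts, was 51.5% and 50.2% in wild type and 53.2% and 53.6% in Npas3-/-. This value follows which genes were counted and does not measure the base composition of the reads. The wild-type libraries also differed from each other in it. The transcripts of the 9 genes have a median GC content of 43.7%, against 50.2% for all genes tested, from 39.3% in Scfd1 to 49.4% in Heatr5a. Of 7866 tested genes within that range, 42.7% were called lower and the median log2 fold change was -1.28. The share called lower was 57.6% of genes with 38 to 42% GC, the bin of Scfd1 and Sptssa, 52.8% of those with 42 to 46%, where Akap6, Snx6, Baz1a, Srp54a and Srp54c lie, and 25.3% of those with 46 to 50%, where Strn3 and Heatr5a lie. Median log2 fold changes in these bins were -2.50, -1.59 and -0.50, so Strn3, at -2.88, and Akap6, at -3.84, lay below the medians of their bins by more than the other neighbours in the same bins did, while Sptssa lay above the median of its bin and Snx6 just below.

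A fit that removed, in each library, the smooth trend of counts with GC content and length left 2 of the 9 below the threshold, Strn3 and Akap6, against 3.07% of all genes called lower and 5.71% called higher. A real difference between genotypes that tracked composition or length would be taken out along with the rest. It moved the median over all genes from -0.07 to 0.09 and that of the 9 neighbours from -2.60 to -0.75. Corrected log2 fold changes were -2.02 for Strn3 (SE 0.36, edgeR adjusted p = 0.0331) and -1.60 for Akap6 (SE 0.32, edgeR adjusted p = 0.0412). Srp54c (-0.75, edgeR adjusted p = 0.0777), Heatr5a (-0.75, 0.0854), Scfd1 (-0.71, 0.0897) and Baz1a (-0.96, 0.101) missed the threshold. Srp54a (-0.39, 0.457), Snx6 (-0.36, 0.220) and Sptssa (-0.27, 0.699) had the smallest corrected values, and the summed Srp54 copies were at -0.50 (SE 0.20, edgeR adjusted p = 0.161). Npas3 itself was at -0.57 (edgeR adjusted p = 0.154). The 2 calls, of Strn3 and Akap6, are not stable to the loss of a library. Leaving out any single library lost 1 or both of them in the corrected edgeR fit. DESeq2 with the same correction was run without wild-type replicate 2 and without each Npas3-/- replicate. There it still called some of the 9, and it also called more of all genes than edgeR did. The corrected edgeR values of the 9 lay between -1.60 and -0.07 without wild-type replicate 2. They lay between -2.25 and -0.14 without Npas3-/- replicate 1 and between -1.78 and -0.23 without Npas3-/- replicate 2. Sptssa changed direction, to 0.54, in the corrected fit without wild-type replicate 1.

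**Figure D3:**
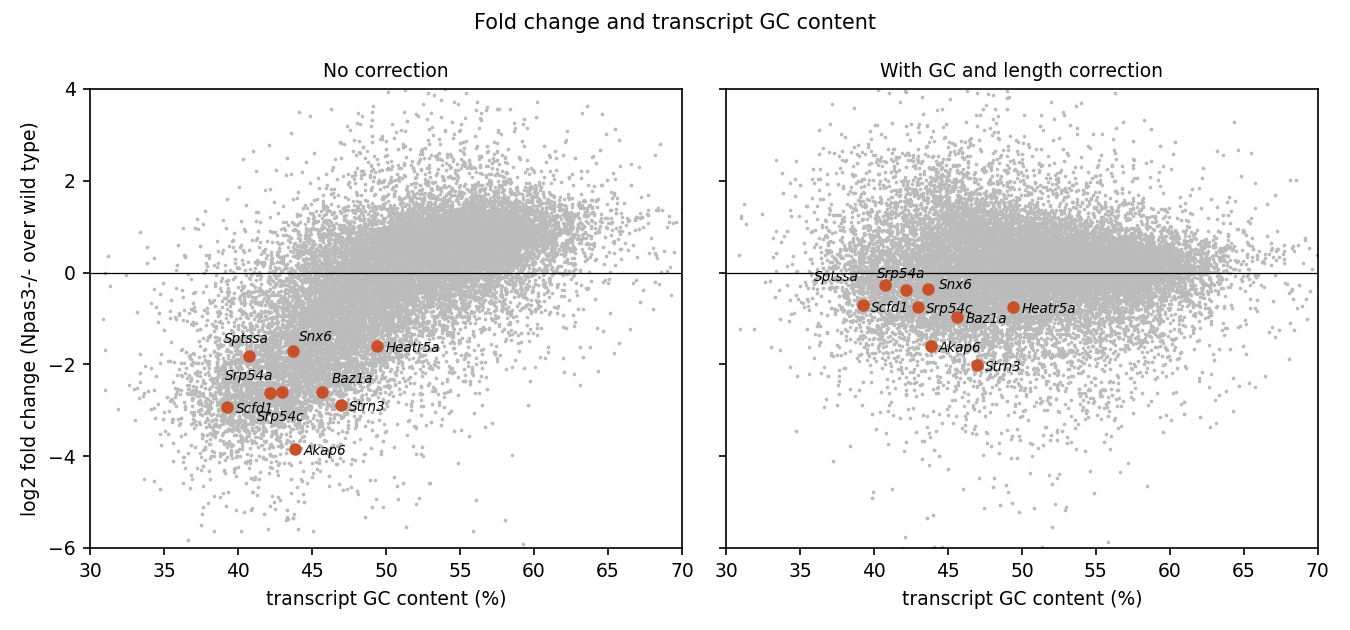
Log2 fold change (Npas3-/- over wild type) against the GC content of the transcript for all tested genes (grey) and the 9 neighbours (orange), before and after the correction for GC content and length. Before correction the neighbours lie at the AT-rich end, where the grey cloud is mostly below 0, and after it they lie between -2.02 and -0.27.

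After correction the other genes of the stretch held 4 higher and 1 lower call among 18. Egln3 was at 1.72 (edgeR adjusted p = 0.0246), Nubpl at 1.93 (edgeR adjusted p = 0.0411), Fam177a at 1.39 (edgeR adjusted p = 0.0322) and the clone-named 1700047I17Rik2, named because it was called, at 1.41 (edgeR adjusted p = 0.0328). The last 2 had been below 0 before correction. The corrected values of the 4 neighbours before Npas3 had a median of -1.17, with 2 called, and those of the 5 after it a median of -0.39, with 0 called. The difference between the sides was not tested. Over the 8 partner lists, 24 genes were higher (17.4%, against 5.71% of all genes) and 10 lower (7.25%, against 3.07%) after correction, so higher calls outnumbered lower ones. Among the genes named above, Pdcd10, Cttnbp2, Stxbp3, Ormdl1, Vps35, Snx5, Snx2 and Srp19 stayed lower, with corrected log2 fold changes between -1.86 (Pdcd10 and Ormdl1) and -0.99 (Srp19), and Sec63 was at 0.10.

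**Figure D4:**
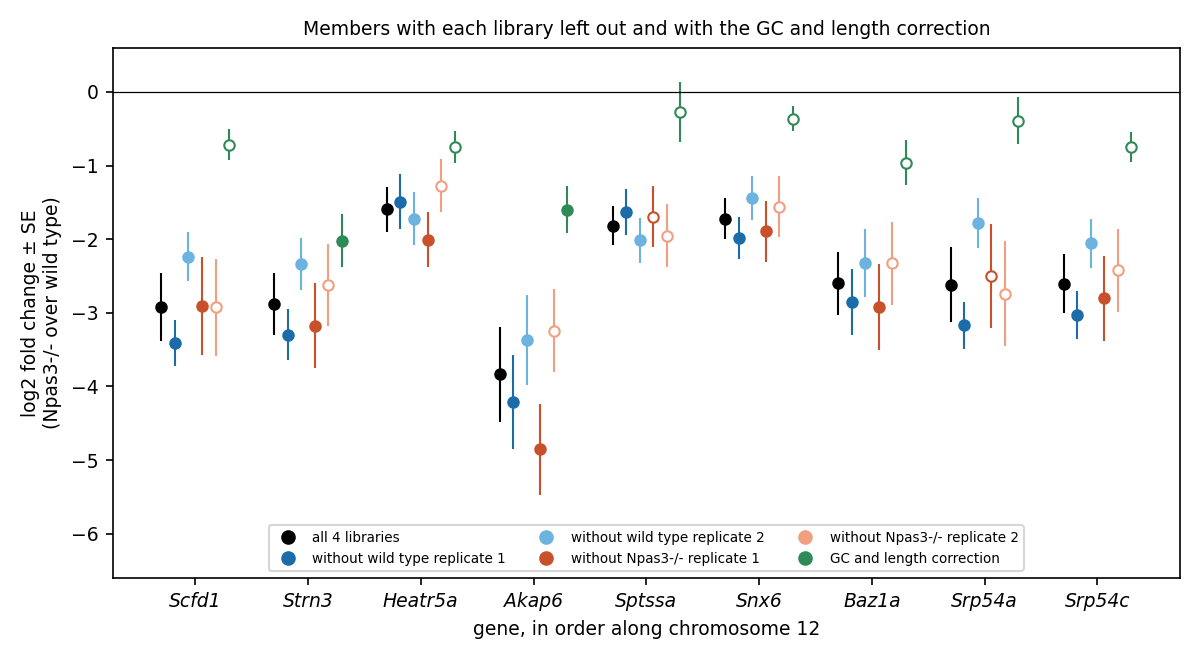
Log2 fold change of each neighbour (Npas3-/- over wild type) over all 4 libraries, without each library in turn, and with the GC content and length correction; bars show the SE and open symbols mark an edgeR adjusted p not below 0.05. All points lie below 0, all 9 are open without Npas3-/- replicate 2, and the corrected values lie nearest 0 for Sptssa, Snx6 and Srp54a.

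Reads shared with other genes touch few of the neighbours outside the Srp54 copies. Annotated exons of Sptssa overlap those of Mir1892 over 5.27% of their length, those of Baz1a overlap Gm20403 over 4.83% and those of Heatr5a overlap Gm26517 over 1.61%. Of 100-base transcript windows, 5.58% of those of Baz1a and 1.79% of those of Heatr5a occur in another gene's transcripts, and 0% of those of Scfd1, Strn3, Akap6, Sptssa and Snx6 do.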

How the data were processed

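The authors deposited 1 table with the raw counts of 4 libraries, keyed by Ensembl identifier. It was made with featureCounts on mm10 after HISAT2 2.1.0 and Trimmomatic 0.3.8, per the submitters' processing notes. The sources used here do not give the featureCounts version, annotation release or strand setting. Identifiers were matched to GENCODE mouse release 21 (53274 of 53379 found, 50604 with the same version), and promoters came from RefSeq.

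The 9 genes, the lists and the tests were chosen with earlier results of these data known, so no list is independent evidence of a direction. Samples were grouped by the genotype label. Genotypes were compared with the quasi-likelihood test of edgeR 4.0.16 in R 4.3.3, with TMM scaling, filterByExpr at a minimum count of 10, 2 residual degrees of freedom and Benjamini-Hochberg adjustment over the 18838 genes tested, at a threshold of 0.05. The SE is the size of the log2 fold change over the square root of F. The fits were tested on simulated data. The GC and length correction fitted natural splines with 6 degrees of freedom each in each library and entered as an offset. The value fitted was the deviation of log2 CPM (prior count 2) from the gene's mean over the libraries. DESeq2 1.42.0, limma 3.58.1 (voom), other filters, a replicate block and leaving out each library were alternatives. Named were Npas3, the 9 genes, other tested genes between them whose symbol is not a model or clone name, the 3 genes of smallest p in each partner list and the most abundant gene of each marker list. A gene between the neighbours that the rule would name is not reported here. The most abundant markers besides Gfap were Stmn2, Cd68, Olig1, Col1a2, Acta2 and Foxj1.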

Additional observations from a re-analysis of the deposited data

How the results depend on the processing

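In the fits on all 4 libraries, direction was the stable part for the 9 neighbours, but not for all other named genes, as given below. The 9 neighbours passed in edgeR, with DESeq2 size factors, in DESeq2, in limma-voom, without a filter on low counts, with the replicate block, and without either wild-type replicate, and a filter of 5 CPM tested and called 8. Over all 18838 genes 6232 were called in edgeR, 6425 with DESeq2 size factors, 8372 in DESeq2 and 6036 in limma-voom. With the filter of 5 CPM, 5979 of all 11652 genes tested were called. Of the neighbours, the correction for GC content and length left 2, and an adjusted p below 0.01 left 0 (0 of all genes, 0 of the other genes of the stretch and 0 of the partner genes).

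Whether same-numbered samples were paired is not stated. Over genes, the replicate differences in wild type and in Npas3-/- were correlated at -0.16 (-0.08 after correction). With a single difference per genotype this value cannot decide the pairing. The replicate block called 2560 of all genes, 9 neighbours and 34 partner genes, and with the correction 1120, 2 and 24. Crossing the pairing, added after seeing the data, gave 7670 genes and 9 neighbours. Without correction or block, 77 partner genes were called.

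The correction called 1655 genes and 34 partner genes, and moved the median of the neighbours to -0.75 (-0.74 with the block) and the Srp54a and Srp54c levels, as a mean log2 fold change, to -0.57 (-0.56). No filter on low counts gave 3997 genes and 48 partner genes. For the other genes of the stretch, 5 in the test as reported, DESeq2 called 8. Widened to the 5 Mb window this set held 16 calls, and widened to the whole chromosome 214, each time without Npas3 and the neighbours.

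Leaving out single libraries, with and without the correction, gave 0 to 5832 genes, 0 to 9 neighbours, 0 to 6 other genes of the stretch and 0 to 64 partner genes, medians of -3.03 to -0.72, and, for the Srp54a and Srp54c levels, mean log2 fold changes of -3.10 to -0.33. All genes called by edgeR without Npas3-/- replicate 2 numbered 0, with 5728 at an unadjusted p below 0.05; DESeq2 called 3614 there and limma-voom 0. The uncorrected edgeR fit called 2425 without Npas3-/- replicate 1, 2991 without wild-type replicate 2 and 5832 without wild-type replicate 1. With the correction edgeR called 0 without either Npas3-/- replicate (4472 and 3682 at an unadjusted p below 0.05, and 1982 and 1229 by DESeq2), 671 without wild-type replicate 2 and 2121 without wild-type replicate 1. A lone sample of a genotype is assumed to vary like the other genotype's pair.

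Reversals all came with the correction except for Nubpl, at -0.035 without Npas3-/- replicate 2. Corrected values (with the block) were 0.91 (0.90) for Eapp, 0.79 (0.92) for Arhgap5, 1.40 (1.55) for Cfl2, 1.39 (1.41) for Fam177a, 1.41 (1.43) for 1700047I17Rik2 and 0.10 (0.10) for Sec63. Over single libraries left out, values ran from -2.01 to 0.54 for Sptssa, -0.035 to 2.36 for Nubpl, -1.07 to 1.14 for Eapp, -3.45 to 1.55 for Arhgap5, -0.76 to 2.26 for Cfl2, -0.34 to 1.65 for Fam177a, -0.41 to 1.71 for 1700047I17Rik2, -1.26 to 0.080 for Akap2 and -2.30 to 0.10 for Sec63. Why results differed between settings was not tested, except that fewer samples entered the fits without a library.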
